A study of Mus musculus with 6 samples.

Results

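Transcripts of 10 core cell cycle genes were examined in D10 T cells cultured at 26°C or 37°C. They were the cyclin genes Ccnd2, Ccnd3, Ccne1, Ccne2, Ccna2 and Ccnb1 and the cyclin-dependent kinase genes Cdk1, Cdk2, Cdk4 and Cdk6. They were chosen by gene symbol from the 41079 genes listed, and each symbol matched 1 gene. Ccnd2, Ccnd3, Cdk4 and Cdk6 act chiefly in G1, 3 others at the G1/S boundary (Ccne1, Ccne2 and Cdk2), and the remaining 3 in S, G2 and M phase (Ccna2, Ccnb1 and Cdk1), which are called the G2/M genes here.

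All 6 libraries are labelled as D10, a cloned mouse helper T cell line, although some T cell markers differed between replicate numbers, as given below. Cold-acclimated cells were kept for 24 h at 26°C (n = 3) and non-acclimated cells for 24 h at 37°C (n = 3), and no other treatment differed between them per the labels. The labels name RPMI medium with serum and antibiotics for both, whereas the study's methods name DMEM with serum, antibiotics and IL-2, a cytokine that drives T cell proliferation, as the maintenance medium. The labels give lymph node as the tissue and state that RNA came from old and new extraction batches, without naming the batch of any library. Poly(A)+ RNA was sequenced, and expression is given as TPM, the length-normalised share of a gene among the transcripts of its library, with the same total in each library.

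Cyclins are regulatory subunits that rise and fall through the cell cycle, and cyclin-dependent kinases (CDKs) phosphorylate their substrates only when bound to one. D-type cyclins with Cdk4 or Cdk6 begin to inactivate the retinoblastoma protein in G1, E-type cyclins with Cdk2 promote entry into S phase, and cyclin A and cyclin B with Cdk1 carry the cell through G2 and mitosis. In T cells this machinery is switched on by antigen receptor and cytokine signals, and it underlies clonal expansion.

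The libraries held 16899628 to 31290857 reads, as recovered from the steps of the TPM values, and the members were backed by 121 to 16841 reads per library. All 13 T cell markers examined had a mean of at least 1 TPM over the 6 libraries, but 4 of them varied widely between replicate numbers. Cd4, which defines the labelled cell type, was listed at 1.09, 0.04 and 310 TPM in non-acclimated replicates 1, 2 and 3 and at 1.30, 0.35 and 328 TPM in cold-acclimated replicates 1, 2 and 3, so it was nearly absent from 4 of the 6 libraries. Trac, which encodes the constant region of the T cell receptor alpha chain, was at 15.0 and 12.8 TPM in the replicate 2 libraries and at 129 to 207 TPM in the other 4. Cd28 was at 7.35 and 5.61 TPM in replicate 2 against 27.9 to 54.5 TPM, and Cd3d at 64.3 and 78.6 TPM against 240.1 to 332 TPM. Whether the replicate numbers hold the same subclone was not tested. Of all genes, 30 were at least 2 log2 units higher, and 25 at least 2 lower, in both replicate 3 libraries than in each of the other 4. For replicate 2 these counts were 19 and 10, and for replicate 1 they were 4 and 1. Replicates 2 and 3 thus both differed from the other libraries, replicate 3 in more genes, and the members' calls are also given without each pair. The 10 B cell markers summed to between 2.095 and 3.62 TPM in non-acclimated and between 1.02 and 2.06 TPM in cold-acclimated libraries, with Ms4a1 and Vpreb3 at 0. The 8 macrophage and monocyte markers summed to between 3.46 and 16.7 TPM and between 2.69 and 21.4 TPM, with Cd14 at 0, and the highest sum of each condition was in replicate 3. The 5 CD8 and NK cell markers summed to 0 TPM in non-acclimated and to at most 0.23 TPM in cold-acclimated libraries, with Cd8a, Klrb1c and Ncr1 at 0.

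The sequences around the start of the canonical transcript of each gene were read to see what the members share there. Windows from 250 bases before to 50 bases after the start of the Ensembl canonical transcript were searched on both strands in GRCm39 for 5 short motifs. These were the cell cycle homology region or CHR (TTTGAA or TTCGAA), the CCAAT box, 4 forms of the E2F site (TTTCCCGC, TTTGGCGC, TTTCGCGC and TTTGCCGC), the E-box CACGTG and the cAMP response element TGACGTCA. None of these motifs contains another. For Ccnd2, Ccnd3, Ccne2, Ccna2 and Cdk6 this start lies inside the gene as annotated with the TPM values. The bases before it thus lie within the gene, in part for Ccne2 and wholly for the others. Sequence before the outermost annotated start of those genes was not searched. The promoters of 4 members are shown from 200 bases upstream to the base before the start, with motif matches in capitals. Cdk1 is shown because its window held matches to 3 of the motifs. Ccna2 is shown because it is another G2/M gene, but its window held none. Cdk4 and Cdk6 are shown because their transcripts differed in opposite directions between the temperatures.

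Cdk1, chr10:69188769-69188968, minus strand: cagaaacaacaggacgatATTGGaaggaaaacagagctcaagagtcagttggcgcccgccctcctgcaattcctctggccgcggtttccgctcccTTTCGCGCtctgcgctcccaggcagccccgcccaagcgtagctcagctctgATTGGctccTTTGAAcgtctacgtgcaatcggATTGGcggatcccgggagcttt

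Ccna2, chr3:36626300-36626499, minus strand: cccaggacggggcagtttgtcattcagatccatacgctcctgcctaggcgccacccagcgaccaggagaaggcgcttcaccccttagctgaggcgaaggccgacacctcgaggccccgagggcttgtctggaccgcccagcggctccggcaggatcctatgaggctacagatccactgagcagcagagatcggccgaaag

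Cdk4, chr10:126899175-126899374, plus strand: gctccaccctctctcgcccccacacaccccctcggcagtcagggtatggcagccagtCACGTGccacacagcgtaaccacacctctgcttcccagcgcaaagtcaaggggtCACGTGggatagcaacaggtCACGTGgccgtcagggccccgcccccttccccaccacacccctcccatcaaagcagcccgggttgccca

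Cdk6, chr5:3393708-3393907, plus strand: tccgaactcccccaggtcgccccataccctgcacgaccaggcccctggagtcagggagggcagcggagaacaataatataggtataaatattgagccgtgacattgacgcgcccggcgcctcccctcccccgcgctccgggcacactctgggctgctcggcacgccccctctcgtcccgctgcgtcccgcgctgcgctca

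The Cdk1 window held TTTGAA at -45 to -40 and again at 12 to 17 relative to the transcript start, the E2F form TTTCGCGC at -105 to -98, and CCAAT on the opposite strand, which reads as ATTGG in the strand shown, beginning at -182, -54 and -22. The Cdk4 window held CACGTG beginning at -143, -89, -69 and 19. The Cdk6 window held 1 CACGTG, at -235 to -230, which lies upstream of the stretch printed. Among all 10 members, the CHR was found in Ccnd2 and Cdk1, CCAAT in Ccnd3, Ccnb1, Cdk1 and Cdk2, the E2F forms in Ccnd3, Cdk1 and Cdk2, the E-box in Cdk4 and Cdk6, and the cAMP response element in none. Of the 10233 promoters of tested protein-coding genes, 15.5% held a CHR, 40.1% CCAAT, 4.21% an E2F form, 10.5% the E-box and 3.49% the cAMP response element. A match is a run of letters in this window and not a measured binding site.

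To examine whether the members differed between cold-acclimated and non-acclimated T cells, log2(TPM + 1) was compared with limma over the 12227 genes with a mean of at least 1 TPM. A gene was called when its Benjamini-Hochberg adjusted p was under 0.05 and its log2 difference was at least 1 in size. All 10 members were tested. No member was called in either direction, against 2.63% of all tested genes called higher and 16.0% called lower at 26°C. Of the 10, 3 (Ccnd3, Ccne2 and Ccna2) had an unadjusted p under 0.05 in limma, all of them lower. Of all 12227 tested genes, 3664 were lower and 948 higher at that level. A second test, voom on the recovered reads, also called none and gave 3 members with an unadjusted p under 0.05. With the replicate number as a term in the model, 2 members, Ccne2 and Ccna2, were called lower and none higher, against 21.9% and 3.75% of all genes. Without replicate 3 of both conditions, 4 members were called lower (Ccne2, Ccna2, Ccnb1 and Cdk1) and none higher, against 25.3% and 5.34% of all genes. Without replicate 1, or without replicate 2, limma called no member. There 2 and 0 members had an unadjusted p under 0.05, against 2410 and 2229 of the 12227 tested genes. Those fits called 0.00% of all tested genes in either direction, with lowest adjusted p values of 0.17 and 0.16.

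**Figure D1:**
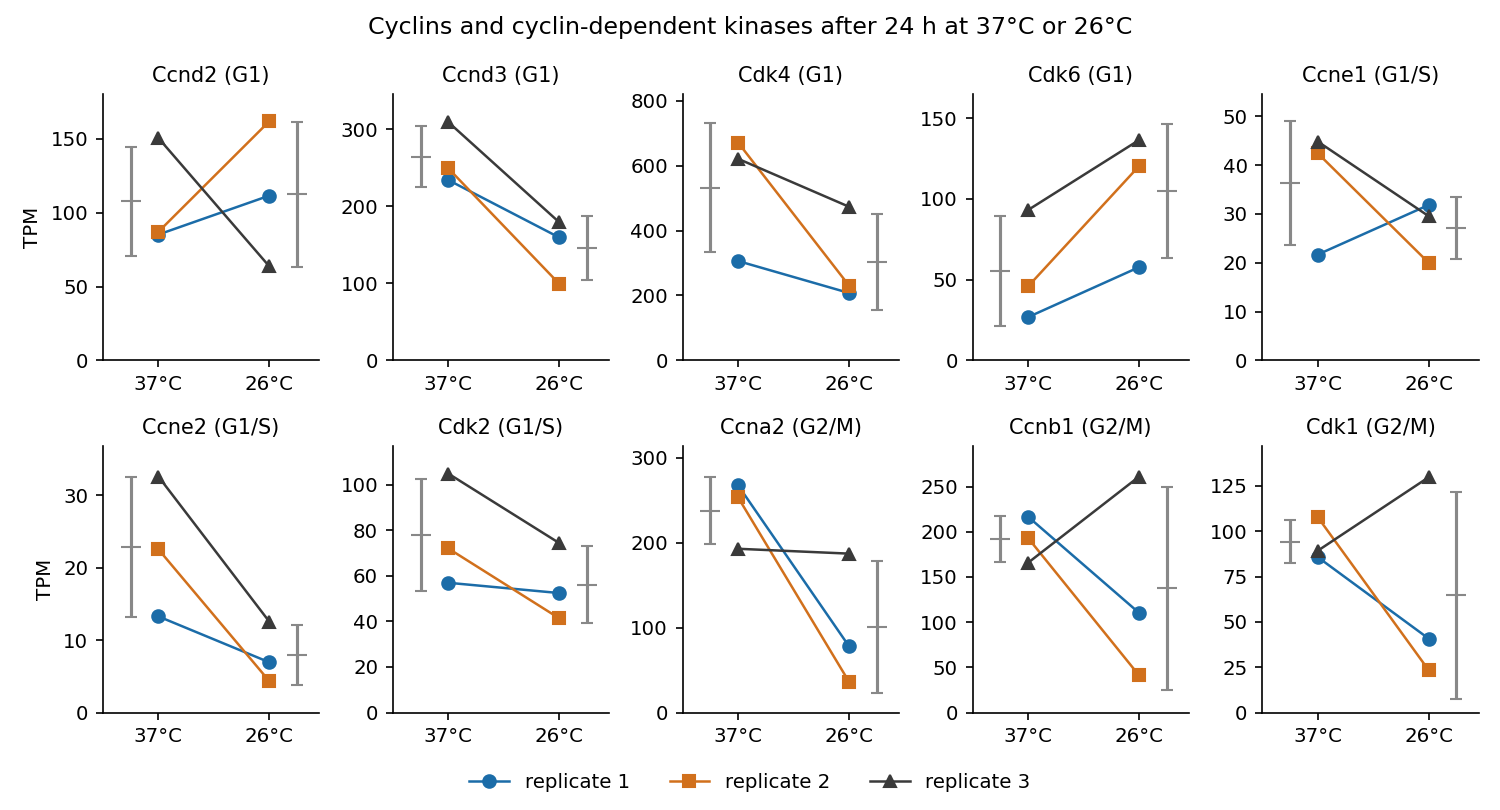
TPM of each of the 10 members at 37°C and 26°C, with lines joining the libraries of 1 replicate number and grey bars giving the mean ± SD (n = 3) of each temperature. Cdk6 was higher and Ccnd3, Cdk4, Ccne2, Cdk2 and Ccna2 were lower at 26°C in every pair, while Ccnb1 and Cdk1 were lower in replicates 1 and 2 and higher in replicate 3. After median of ratios scaling, Cdk2 was higher in replicate 1, by 0.28 on the log2 scale, and Ccna2 in replicate 3, by 0.23.

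In direction, 5 members were lower at 26°C in each of the 3 pairs, 1 was higher in each, and 4 were mixed, while after median of ratios scaling Cdk2 and Ccna2 were mixed as well. Of all tested genes, 47.9% were lower in each pair and 18.2% higher in each. The ranges of the conditions did not overlap for 3 members, all lower at 26°C (Ccnd3, Ccne2 and Ccna2), against 31.4% of all genes lower and 9.69% higher without overlap. After that scaling only Ccnd3 remained without overlap. In the pair numbered 1, 2 members were at least 1 log2 unit lower and 1 at least 1 higher, against 26.5% and 7.96% of all genes. In the pair numbered 2, 7 were at least 1 lower and 1 at least 1 higher, against 30.8% and 6.93%. In the pair numbered 3, 2 were at least 1 lower and none at least 1 higher, against 15.3% and 3.42%.

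The median log2 difference of the 10 members was -0.83, and that of all tested genes was -0.34. Scaling the libraries by the median of ratios moved the median of all tested genes to 0.02 and that of the members to -0.43, so a difference near -0.34 in TPM lies close to that of the median gene. With this scaling and the replicate term, 1 member was called lower (Ccne2) and 1 higher (Cdk6), against 12.7% and 8.89% of all genes. In bulk RNA, fewer cells in a cell cycle phase and less RNA per cell cannot be told apart.

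Among the G1 genes, the D-type cyclins Ccnd2 and Ccnd3 bind the same kinases and couple growth factor and cytokine signals to the cycle. Ccnd3 (chr17:47815976-47910614, plus strand) was at 234, 250 and 310 TPM in non-acclimated replicates 1, 2 and 3 and at 160, 99.6 and 180 TPM in cold-acclimated replicates 1, 2 and 3. Every cold-acclimated library was below every non-acclimated one, and the smallest difference was in replicate 1. The log2 difference was -0.88 (SE 0.28, limma adjusted p = 0.062), and with the replicate term the adjusted p was 0.023, although the size stayed under the threshold of 1. After median of ratios scaling the difference was -0.49 (limma adjusted p = 0.21, and 0.098 with the replicate term). Ccnd3 shares 359 bases with Bysl on the opposite strand, whose mean was 94.0 TPM at 37°C and 163 TPM at 26°C, the opposite order to Ccnd3.

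Ccnd2 (chr6:127102125-127131913, minus strand) was at 85.2, 87.1 and 151 TPM in the non-acclimated replicates and at 112, 162 and 63.7 TPM after cold acclimation. It was higher at 26°C in replicates 1 and 2, by 0.38 and 0.89 on the log2 scale, and lower in replicate 3, by 1.23, so the conditions overlapped. The mean difference was 0.01 (SE 0.39, 95% interval -0.90 to 0.93, adjusted p = 0.98), an interval that leaves room for differences of almost 1 log2 unit in either direction. Without replicate 3 it was 0.64 (adjusted p = 0.11), and with median of ratios scaling as well it was 1.09 (adjusted p = 0.027) and called higher.

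Cdk4 and Cdk6 encode the alternative kinase partners of the D-type cyclins, and their transcripts went in opposite directions in each pair. Cdk6 (chr5:3391004-3581008, plus strand) was at 26.8, 45.8 and 93.1 TPM at 37°C and at 57.7, 120 and 136 TPM at 26°C. It was the only member higher at 26°C in all 3 pairs, by 2.15-fold, 2.63-fold and 1.46-fold in TPM, although the ranges overlapped because the level differed widely between replicate numbers in both conditions. The log2 difference was 1.00 (SE 0.50, adjusted p = 0.19). With the replicate term the adjusted p was 0.019 with the size just below the threshold, and with median of ratios scaling and the replicate term it was 1.39 (adjusted p = 0.014) and called higher. With this scaling and without replicate 3, Cdk6 was at 1.67 (adjusted p = 0.035), and this and Ccnd2 were the members called higher there, against 11.5% of all genes.

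Cdk4 (chr10:126899404-126903157, plus strand) was at 306, 671 and 621 TPM at 37°C and at 208, 231 and 473 TPM at 26°C. It was lower in each pair, by 1.47-fold, 2.91-fold and 1.31-fold in TPM, and the cold-acclimated replicate 3 lay above the non-acclimated replicate 1. The log2 difference was -0.83 (SE 0.42, adjusted p = 0.20), with an adjusted p of 0.047 with the replicate term, and after median of ratios scaling the adjusted p of that fit was 0.19. The ratio of Cdk4 to Cdk6 within a library, which no scaling of whole libraries can move, was 11.4, 14.6 and 6.67 in non-acclimated and 3.60, 1.92 and 3.47 in cold-acclimated cells. Every cold-acclimated ratio was below every non-acclimated one.

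**Figure D2:**
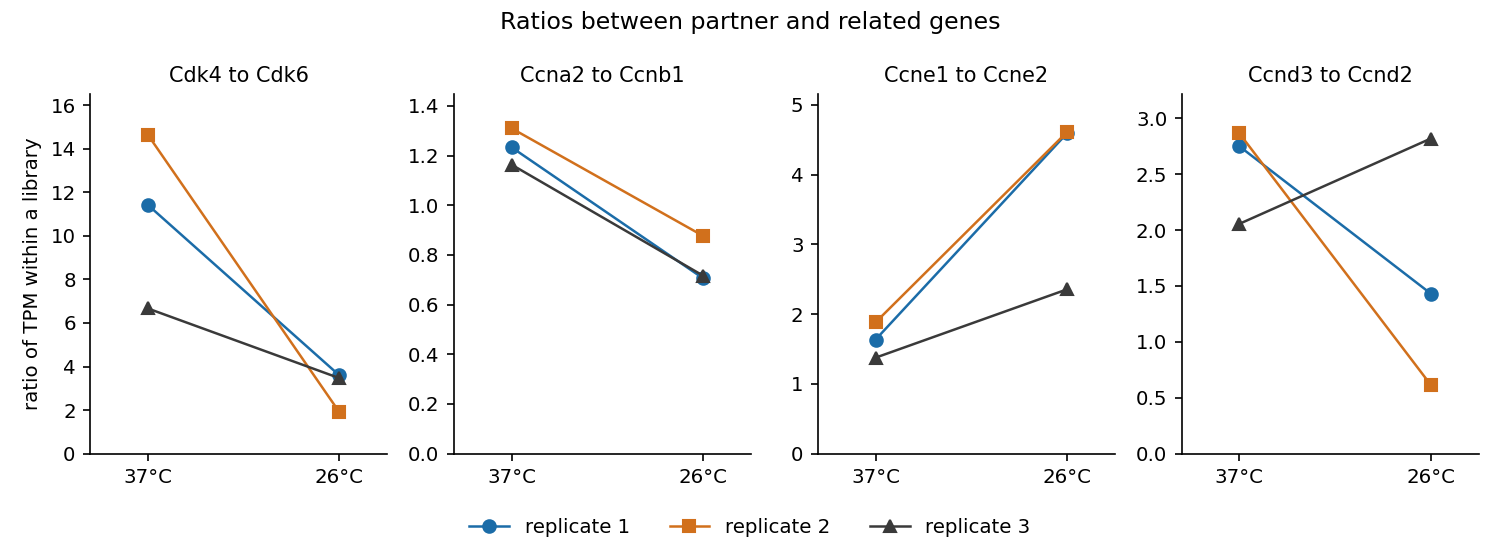
Ratios of TPM between pairs of members within each library at 37°C and 26°C, with lines joining the libraries of 1 replicate number. The ratios of Cdk4 to Cdk6 and of Ccna2 to Ccnb1 were lower, and that of Ccne1 to Ccne2 was higher, at 26°C without overlap, while that of Ccnd3 to Ccnd2 overlapped.

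This and the other ratios were chosen after their values were seen and are given as a description. The ratio of Ccnd3 to Ccnd2 was 2.75, 2.86 and 2.06 at 37°C and 1.43, 0.62 and 2.82 at 26°C. It was thus lower at 26°C in replicates 1 and 2 and higher in replicate 3. Ccnd1, the other D-type cyclin, was between 0.19 and 0.83 TPM in all 6 libraries and was too low to be tested.

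At the G1/S boundary, Ccne1 and Ccne2 encode E-type cyclins, which activate Cdk2. Ccne2 (chr4:11190489-11204781, plus strand) was at 13.3, 22.5 and 32.6 TPM at 37°C and at 6.94, 4.34 and 12.5 TPM at 26°C. All 3 cold-acclimated libraries were below all 3 non-acclimated ones, and the TPM ratio of 37°C to 26°C was 1.91, 5.20 and 2.60 in replicates 1, 2 and 3. The log2 difference was -1.43 (SE 0.44, adjusted p = 0.056), just short of a call. With the replicate term the adjusted p was 0.014, and with median of ratios scaling and that term the difference was -1.07 (adjusted p = 0.034), so Ccne2 was called lower in both. Ccne2 was the member with the fewest reads, 121 in its lowest library, and 5624 of its bases overlap Ints8 on the opposite strand, whose mean was 41.5 TPM at 37°C and 22.9 TPM at 26°C.

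Ccne1 (chr7:37797409-37806915, minus strand) was at 21.7, 42.4 and 44.8 TPM at 37°C and at 31.9, 19.99 and 29.5 TPM at 26°C. It was higher at 26°C in replicate 1 and lower in replicates 2 and 3. The log2 difference was -0.37 (SE 0.34, 95% interval -1.17 to 0.43, adjusted p = 0.48), and it was 0.02 after median of ratios scaling, so its sign depended on the scaling. Within a library, the ratio of Ccne1 to Ccne2 was 1.64, 1.88 and 1.38 in non-acclimated and 4.59, 4.61 and 2.36 in cold-acclimated cells. The cold-acclimated ratios were all above the non-acclimated ones.

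Cdk2 (chr10:128533807-128540920, minus strand), the kinase partner of the E-type cyclins and, in S phase, of cyclin A, was at 56.9, 72.0 and 105 TPM at 37°C and at 52.4, 41.4 and 74.4 TPM at 26°C. It was lower at 26°C in each pair, by 0.12, 0.79 and 0.49 on the log2 scale, and the conditions overlapped. The difference was -0.46 (SE 0.32, 95% interval -1.21 to 0.28, adjusted p = 0.33), and after median of ratios scaling it was -0.07, with replicate 1 then at 0.28 and replicates 2 and 3 at -0.28 and -0.21. All 7114 bases of Cdk2 lie within the annotated Pmel gene on the opposite strand, which averaged 5.35 TPM at 37°C and 2.00 TPM at 26°C.

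The G2/M genes gave the widest spread between replicate numbers. Ccna2 (chr3:36619014-36627187, minus strand), the cyclin of S phase and G2, was at 267, 253 and 193 TPM at 37°C and at 78.0, 36.3 and 187 TPM at 26°C. The conditions did not overlap, but only by the gap between 193 and 187 TPM in replicate 3. In TPM it was 3.43-fold and 6.98-fold lower at 26°C in replicates 1 and 2 and 1.03-fold lower in replicate 3. The log2 difference was -1.53 (SE 0.54, adjusted p = 0.080). With the replicate term the adjusted p was 0.044 and Ccna2 was called lower, and without replicate 3 the difference was -2.27 (adjusted p = 0.0089). After median of ratios scaling of all libraries the difference was -1.13 (limma adjusted p = 0.15, and 0.094 with the replicate term), and Ccna2 was not called. Replicate 3 was then at 0.23, so the order within that pair depended on the scaling. Ccna2 shares 863 bases with Exosc9 on the opposite strand, which averaged 137 TPM at 37°C and 110 TPM at 26°C.

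Ccnb1 and Cdk1 together form the kinase complex that drives entry into mitosis, and their transcripts varied alike over the libraries. Ccnb1 (chr13:100915247-100922994, minus strand) was at 217, 193 and 166 TPM at 37°C and at 110, 41.4 and 261 TPM at 26°C. Cdk1 (chr10:69170976-69188742, minus strand) was at 85.7, 108 and 89.3 TPM at 37°C and at 40.7, 23.3 and 130 TPM at 26°C. For both genes the cold-acclimated replicates 1 and 2 were the lowest of the 6 libraries and the cold-acclimated replicate 3 was the highest.

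The log2 difference of Ccnb1 was -0.97 and -2.20 in replicates 1 and 2 and 0.65 in replicate 3, with a mean of -0.84 (SE 0.59, 95% interval -2.21 to 0.54, adjusted p = 0.34). That of Cdk1 was -1.05, -2.16 and 0.54, with a mean of -0.89 (SE 0.56, 95% interval -2.20 to 0.41, adjusted p = 0.29). Without replicate 3 both were called lower, Ccnb1 at -1.58 (adjusted p = 0.044) and Cdk1 at -1.61 (adjusted p = 0.015). With median of ratios scaling and without replicate 3, Cdk1 at -1.16 (adjusted p = 0.039) and Ccna2 at -1.82 (adjusted p = 0.022) were called lower and Ccnb1 at -1.13 (adjusted p = 0.12) was not, against 15.6% of all genes. Each replicate number is a single pair, so the difference between the pairs was not tested.

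**Figure D3:**
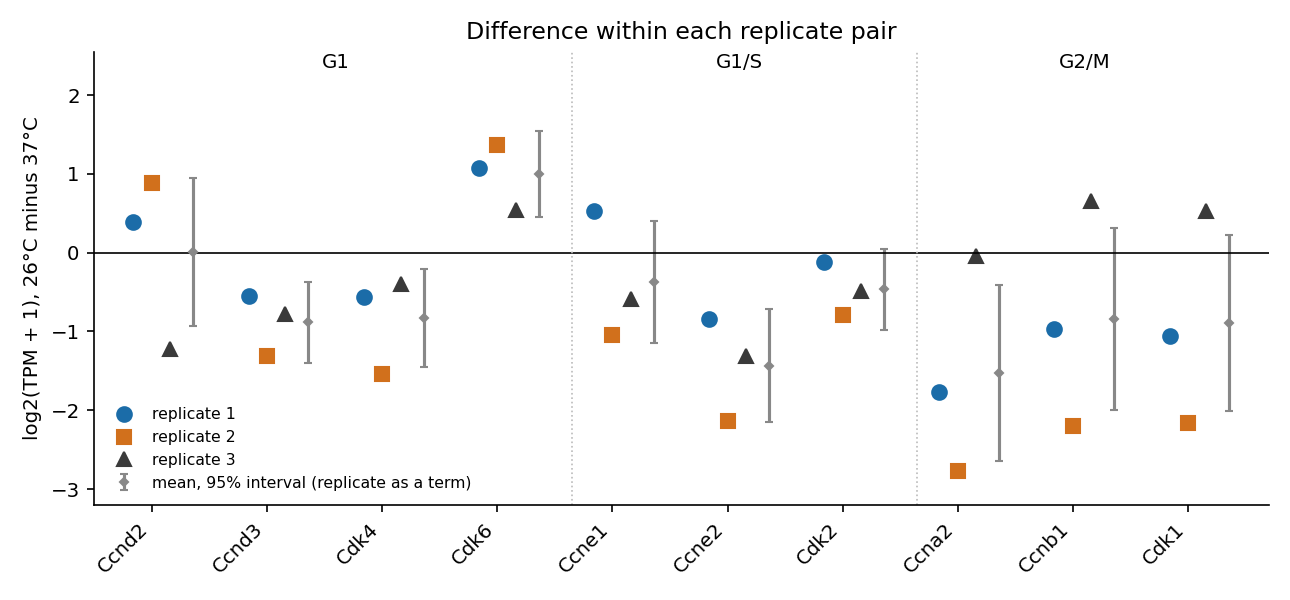
Log2 difference, 26°C minus 37°C, of log2(TPM + 1) within each replicate pair for the 10 members, ordered by cell cycle phase, with the mean of the 3 pairs and its 95% interval from the limma fit with the replicate term in grey. In the G2/M genes, replicates 1 and 2 lay between -0.97 and -2.77 and replicate 3 between -0.04 and 0.65.

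Within a library, the ratio of Ccna2 to Ccnb1 was 1.23, 1.31 and 1.16 at 37°C and 0.71, 0.88 and 0.72 at 26°C. This ratio was lower in all 3 cold-acclimated libraries, replicate 3 included, where Ccnb1 was higher and Ccna2 nearly level. The ratio of Ccnb1 to Cdk1, by contrast, was 2.53, 1.79 and 1.86 at 37°C and 2.71, 1.77 and 2.01 at 26°C. The differences within its pairs were smaller than its spread between replicate numbers. The ratio of Cdk1 to Cdk2 was 1.505, 1.495 and 0.85 at 37°C and 0.78, 0.56 and 1.74 at 26°C, lower in replicates 1 and 2 and higher in replicate 3.

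To set the phases against each other, the mean log2(TPM + 1) of the 4 G1 genes minus that of the 3 G2/M genes was taken in each library. It was -0.58, -0.11 and 0.68 in non-acclimated and 0.77, 2.12 and -0.16 in cold-acclimated replicates 1, 2 and 3. Cold-acclimated cells thus had a G1-weighted balance in replicates 1 and 2, by 1.35 and 2.23 log2 units more than their non-acclimated partners, and a more G2/M-weighted one in replicate 3, by 0.85 units. The mean of the 3 changes was 0.91 ± 1.58 (SD, n = 3), smaller than their spread.

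The mean of the G1 genes itself differed by 0.09, -0.15 and -0.46 in replicates 1, 2 and 3. Within that mean, Cdk6 and Ccnd3 lay on opposite sides of 0 in every pair. The mean of the G2/M genes differed by -1.26, -2.38 and 0.38, and that of the G1/S genes by -0.14, -1.32 and -0.79. In replicate 3 the mean of the G1/S genes was thus lower at 26°C and that of the G2/M genes higher, although Ccna2 was at -0.04. After median of ratios scaling Ccne1, Ccne2 and Cdk2 were at -0.31, -1.04 and -0.21 in that pair.

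Since TPM is normalised by length, levels of different members can be set side by side. At 37°C the order of mean TPM was Cdk4 at 532 ± 198, Ccnd3 at 265 ± 39.8, Ccna2 at 238 ± 39.6, Ccnb1 at 192 ± 25.6, Ccnd2 at 108 ± 37.2, Cdk1 at 94.2 ± 11.8, Cdk2 at 77.9 ± 24.5, Cdk6 at 55.2 ± 34.2, Ccne1 at 36.3 ± 12.7 and Ccne2 at 22.8 ± 9.66 (SD, n = 3 each). Among neighbours in this order, only Ccnb1 and Ccnd2 had ranges that did not overlap. At 26°C it was Cdk4 at 304 ± 147, Ccnd3 at 146 ± 41.6, Ccnb1 at 138 ± 112, Ccnd2 at 112 ± 49.1, Cdk6 at 105 ± 41.6, Ccna2 at 100.4 ± 77.8, Cdk1 at 64.6 ± 57.1, Cdk2 at 56.0 ± 16.8, Ccne1 at 27.1 ± 6.29 and Ccne2 at 7.94 ± 4.20 TPM.

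At 26°C the neighbours with ranges apart were Cdk4 and Ccnd3, Cdk2 and Ccne1, and Ccne1 and Ccne2. Cdk6 had rank 8 at 37°C and rank 5 at 26°C, and Ccna2 ranks 3 and 6, although both lay among neighbours whose ranges overlapped. Cdk4 was the most abundant member and Ccne2 the least at both temperatures.

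Profiles were compared by the root mean square distance between log2(TPM + 1) values over the 6 libraries, each gene centred on its own mean. Among the members the closest pair was Ccnb1 and Cdk1, at 0.24 log2 units, followed by Ccne1 and Cdk2 at 0.26 and Ccnd3 and Cdk2 at 0.27. The farthest was Ccna2 and Cdk6, at 1.59. Among the 9733 other genes with a mean of at least 5 TPM, the nearest to Ccna2 were Aurka at 0.11 and Kif20a at 0.12, which encode a mitotic kinase and a mitotic kinesin. The nearest to Cdk1 were Gm52438 at 0.11 and Cks1b at 0.14, which encodes a small CDK-binding protein, and the nearest to Ccnb1 were Gm52438 at 0.18 and Racgap1, a regulator of cytokinesis, at 0.19.

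For Ccne1 the nearest were 2310011J03Rik at 0.12 and Dna2, a replication nuclease and helicase, at 0.14, and for Ccne2 Fubp1 at 0.15 and Tmem69 at 0.17. For Cdk2 they were Adsl, an enzyme of purine synthesis, at 0.061 and Mrps18a at 0.081. For Cdk4 they were Gm52117 and Dhrs4, both at about 0.08. For Ccnd3 they were Srd5a3 at 0.057 and Gtf2e1 at 0.076, and for Ccnd2 Dexi at 0.087 and Icam5 at 0.14. Cdk6 had the most distant nearest genes of the 10 members, 4930528A17Rik at 0.19 and 4931440P22Rik at 0.22.

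The regulators around the members were described in 8 lists, which include 18 S phase transcripts and 20 G2 and M phase transcripts. These lists held 110 genes, called regulators together here, of which 102 were tested. In the limma fit, 18 were called lower and 1 higher at 26°C, or 17.6% and 0.980% of those tested, against 16.0% and 2.63% of all genes, so both shares lay near or under the background. The fit with the replicate term called 41 (40.2%) lower and 1 higher, against 21.9% and 3.75% of all genes. Of these 41, 10 were S phase and 10 were G2 and M phase transcripts. Without replicate 3, 63 (61.8%) were called lower and 3 higher, against 25.3% and 5.34%. Of these 63, 15 were S phase and 19 were G2 and M phase transcripts. Without replicate 1, or without replicate 2, limma called none. In each of those fits 17 of the 102 had an unadjusted p under 0.05, against 2410 and 2229 of all 12227 tested genes. Median of ratios scaling gave 10 lower (9.80%) and 7 higher (6.86%), against 8.80% and 6.56% of all genes. Among the genes named below it ended the calls of Wee1, Ambra1, Cdc16 and Uhrf1, which stayed lower, and added Ccnl2 and Ccnj as called higher.

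CDK inhibitors bind CDKs or cyclin-CDK complexes and block their activity, except for Cdkn3, a phosphatase that acts on CDKs. Of the 8 listed, Cdkn1c and Cdkn2a were listed at 0 in all 6 libraries and the other 6 were tested. None of these was called, against 16.0% of all genes called lower and 2.63% higher. Of the 6, 3 had an unadjusted p under 0.05 in limma, all of them lower. Of all 12227 tested genes, 3664 were lower at that level. The median log2 difference of the 6 inhibitors was -1.07. With the replicate term 4 were called lower (Cdkn1a, Cdkn2b, Cdkn2c and Cdkn3), against 21.9% of all genes, and without replicate 3 the count was also 4 (Cdkn1a, Cdkn1b, Cdkn2c and Cdkn3), against 25.3%. With median of ratios scaling and the replicate term only Cdkn2b was called (adjusted p = 0.015), and Cdkn1a, Cdkn2c and Cdkn3 were not (adjusted p = 0.056, 0.12 and 0.086), against 12.7% of all genes. Their medians were -1.49, -1.45 and -0.29 in replicates 1, 2 and 3.

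Cdkn1a, which encodes p21, was at 84.8, 60.5 and 231 TPM at 37°C and at 38.5, 20.8 and 162 TPM at 26°C, lower in each pair with a log2 difference of -1.04 (adjusted p = 0.37, and 0.020 with the replicate term). Cdkn1b, which encodes p27, was at 104, 125 and 55.0 TPM at 37°C and at 37.2, 66.0 and 41.4 TPM at 26°C, also lower in each pair (-0.92, adjusted p = 0.11, and 0.030 with the replicate term, under the size threshold). These proteins inhibit Cdk2 complexes.

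Among the inhibitors of Cdk4 and Cdk6, Cdkn2b (p15) was at 25.5, 8.997 and 40.6 TPM at 37°C and at 7.22, 2.79 and 13.9 TPM at 26°C, with a log2 difference of -1.52 (adjusted p = 0.13, and 0.0067 with the replicate term). Cdkn2c (p18) was at 117, 175 and 179 TPM and at 39.5, 53.2 and 171 TPM, so it was lower in replicates 1 and 2 and nearly level in replicate 3 (-1.10, adjusted p = 0.17, and 0.044 with the replicate term). Cdkn2d (p19) was at 118, 93.0 and 62.8 TPM and at 117, 79.4 and 75.6 TPM, a difference of 0.01 (SE 0.31, adjusted p = 0.99). Cdkn3 was at 26.0, 20.3 and 11.2 TPM and at 7.69, 3.86 and 9.83 TPM, without overlap (-1.31, adjusted p = 0.060, and 0.039 with the replicate term).

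Of the 7 other cell cycle cyclins, 4 were tested and 1 was called, lower, and without replicate 3 the count was 4, against 16.0% and 25.3% of all genes. It was Ccnf, an F-box protein that marks substrates for destruction, at 74.6, 71.3 and 82.3 TPM at 37°C and at 21.1, 13.3 and 43.8 TPM at 26°C (log2 difference -1.67, adjusted p = 0.028). Ccng1, a p53 target, was at -1.29 (adjusted p = 0.059, and 0.011 with the replicate term) and Ccng2 at -1.97 (adjusted p = 0.063). The list's medians were -1.89, -2.46 and -0.21 in replicates 1, 2 and 3.

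The 15 cyclins and kinases that act on transcription and the 13 other cyclins and CDKs, of which 10 were tested, had medians of -0.16 and -0.26, close to that of all genes. In the first, 1 was called lower and none higher, against 16.0% and 2.63% of all genes, and without replicate 3 the count was 3 lower, against 25.3%. With median of ratios scaling 4 were called higher and 1 lower, so the balance of directions depended on the scaling, against 6.56% and 8.80% of all genes. Cdk19, a kinase of the Mediator complex, fell from 32.0, 34.1 and 21.1 TPM to 1.49, 2.45 and 8.59 TPM (log2 difference -2.76, adjusted p = 0.013). Ccnl2, a cyclin linked to splicing, and Ccnh, the cyclin of the CDK-activating kinase, had adjusted p values of 0.039 and 0.049 but sizes under the threshold, at 0.91 and -0.92. In the second list, 1 was called lower and 1 higher, against 16.0% and 2.63% of all genes. Without replicate 3 the counts were 2 lower and 3 higher, against 25.3% and 5.34%. With median of ratios scaling they were 1 lower and 3 higher, against 8.80% and 6.56%. Cdk10 fell by 1.39 on the log2 scale (adjusted p = 0.020) and Ccny, a membrane-bound cyclin, rose by 1.06 (adjusted p = 0.021), while Ccnj was at 0.97 (adjusted p = 0.045). Ccny and Cdk6 were both higher at 26°C in all 3 pairs, as were 18.2% of all tested genes. Others of these lists, Ccnj and Ccnl2 among them, were so too.

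Among the 8 kinases, phosphatases and adaptors of CDKs, 2 were called lower and none higher, with a median of -1.03, against 16.0% of all genes called lower. Without replicate 3 the count was 5, against 25.3%, and with median of ratios scaling it was 1, against 8.80%. Cdc25b, a phosphatase that activates Cdk1, was at 147, 97.5 and 70.7 TPM at 37°C and at 17.9, 8.80 and 31.4 TPM at 26°C (-2.48, adjusted p = 0.015). Wee1, a kinase that inhibits Cdk1, also fell (-1.19, adjusted p = 0.033), and Pkmyt1, which inhibits Cdk1 too, was at -1.84 (adjusted p = 0.062, and 0.019 with the replicate term).

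Of the 21 genes of cyclin destruction, 7 were called lower and none higher, with a median of -0.91, against 16.0% of all genes called lower. Without replicate 3 the count was 11, against 25.3%, and with median of ratios scaling it was 3, against 8.80%. Fzr1, an activator of the anaphase-promoting complex that keeps cyclin B low in G1, was at 131, 155 and 124 TPM at 37°C and at 40.6, 33.2 and 58.4 TPM at 26°C (-1.64, adjusted p = 0.0097). Cdc16, a subunit of that complex, was at -1.25 (adjusted p = 0.016). Ambra1, a ligase adaptor for D-type cyclins, was at -1.24 (adjusted p = 0.014). These 3 genes, named for the smallest p of the list, were lower in each pair without overlap, which that choice favours. In replicate 3 they were at -1.08, -0.998 and -1.06. Of the 21, 12 were lower without overlap, against 31.4% of all genes.

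Of the 18 S phase transcripts, 1 was called lower and none higher, with a median of -1.23, against 16.0% of all genes called lower. With the replicate term 10 were called lower, against 21.9% of all genes, and without replicate 3 the count was 15, against 25.3%. With median of ratios scaling it was 0, and with that scaling and the replicate term 5, against 8.80% and 12.7%. Uhrf1, a factor that maintains DNA methylation, was the one called, at 185, 234 and 229 TPM at 37°C and at 46.5, 25.2 and 145 TPM at 26°C (-1.93, adjusted p = 0.0498). Mcm2, a subunit of the replicative helicase, was at -1.498 (adjusted p = 0.059, and 0.018 with the replicate term), and Gins2 was at -1.28 (adjusted p = 0.095). At least 1 log2 unit lower were 14 of the 18 in replicate 1, 17 in replicate 2 and 0 in replicate 3. The shares of all genes were 26.5%, 30.8% and 15.3%.

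Of the 20 G2 and M phase transcripts, 5 were called lower and none higher, with a median of -1.60, against 16.0% of all genes called lower. With the replicate term 10 were called lower, against 21.9% of all genes, and without replicate 3 the count was 19, against 25.3%. With median of ratios scaling it was 3, and with that scaling and the replicate term 5, against 8.80% and 12.7%. Aurkb, a mitotic kinase, was at 201, 170 and 163 TPM at 37°C and at 39.4, 17.8 and 86.3 TPM at 26°C (-2.14, adjusted p = 0.027). Bub1, a spindle checkpoint kinase, was at -2.29 (adjusted p = 0.030) and Tpx2, a spindle assembly factor, at -2.43 (adjusted p = 0.031). Mki67, the gene of the proliferation marker Ki-67, was at 230, 235 and 163 TPM at 37°C and at 62.1, 43.1 and 173 TPM at 26°C (-1.40, adjusted p = 0.077).

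The values of this list are given by replicate number, without a test between the numbers. In replicates 1 and 2, 19 of the 20 were at least 1 log2 unit lower at 26°C, and all 20 were below 0. Of all genes, 26.5%, 30.8% and 15.3% were at least 1 lower in replicates 1, 2 and 3. In replicate 3 none was at least 1 lower, 9 were below 0, Aurkb, Bub1 and Tpx2 among them at -0.91, -0.41 and -0.66, and 11 were above it. The medians were -2.19, -2.82 and 0.07.

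**Figure D4:**
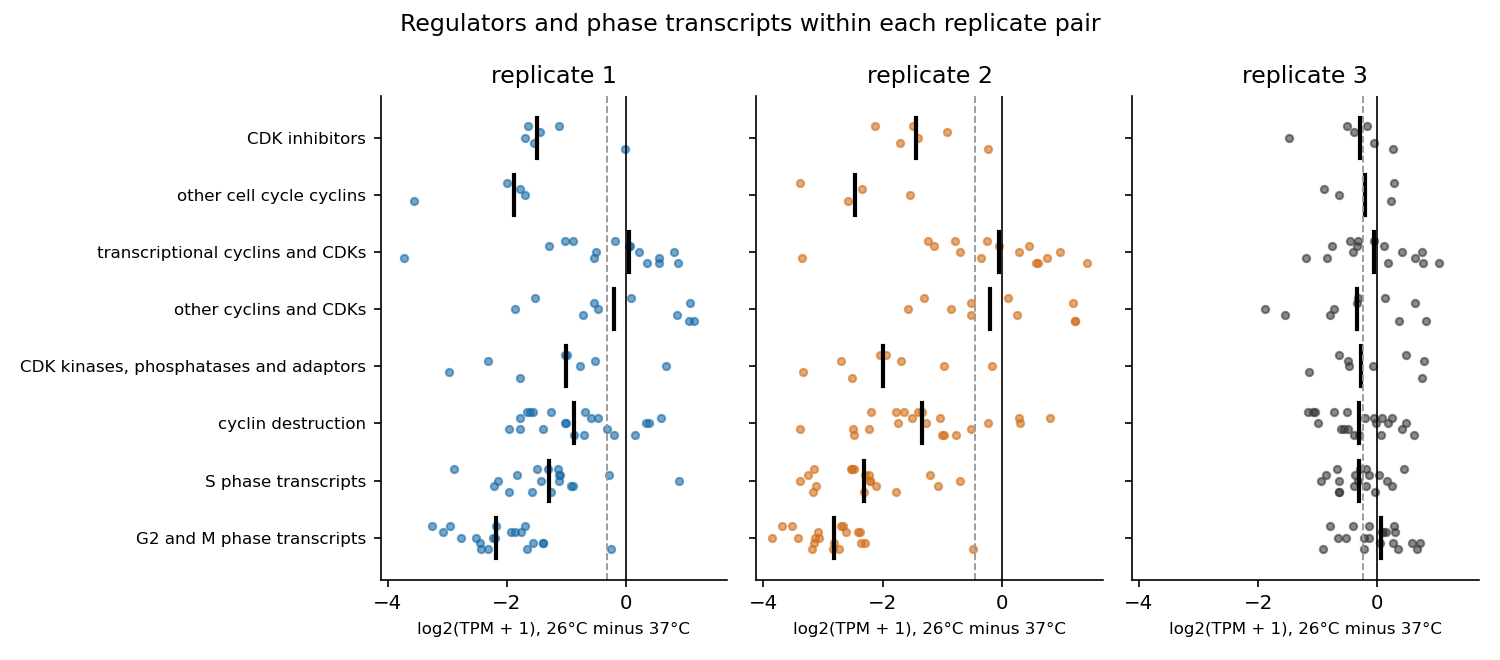
Log2 difference, 26°C minus 37°C, of log2(TPM + 1) for each tested gene of the 8 lists of regulators and phase transcripts within replicate pairs 1, 2 and 3. Each point is a gene, black bars are list medians and dashed lines the median of all tested genes. The G2 and M phase transcripts had medians of -2.19, -2.82 and 0.07.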

How the data were processed

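Values were the TPM of 6 libraries as deposited by the authors, who, per the labels and methods, selected poly(A)+ RNA, made strand-specific paired-end libraries, and used FastQC 0.11.7, Trimmomatic 0.38, HISAT2 2.1.0 and featureCounts 1.6.3 with GRCm39 (versions from the submitters' processing notes). The authors tested counts with DESeq2. The annotation release was not given in the sources used here, nor was the strand setting of the counting, so reads of a member and of a gene overlapping it on the other strand may not have been separated.

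Read numbers were recovered from the steps of the TPM values. All 21195 genes above 0 came out whole within 1e-06 reads in every library (100%). Because the values are TPM, limma 3.58.1 (R 4.3.3) was run on log2(TPM + 1), its prior variance following a trend with mean expression, for genes with a mean of at least 1 TPM, and adjusted over all of them. Fold differences on this scale understate those of low genes. Alternatives were a pseudocount of 0.1, no filter, median of ratios scaling, a replicate term, voom on recovered reads with TMM scaling, and libraries left out. The limma, replicate term, median of ratios and voom fits were run on simulated libraries with changes in random directions and no replicate differences. That check does not cover the differences between replicate numbers or the general shift to lower TPM found here. Figures and other values used Python 3.11.15, pandas 2.3.3, numpy 2.4.6 and matplotlib 3.10.9.

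Samples were grouped by labelled temperature. Per the methods, replicates were prepared independently. Same-numbered libraries deviated together from their condition means (correlations 0.48, 0.50 and 0.51), so the numbers were taken to pair the libraries. For different numbers the correlations were -0.41 to 0.02. Deviations cancel out within a condition, so positive values for the same number force lower ones for different numbers. The fit with the replicate term is given beside each gene printed with an adjusted p that it moved past the threshold. That fit also called 2 of the other cell cycle cyclins and 2 of the other cyclins and CDKs lower. It called 3 CDK kinases, phosphatases and adaptors and 9 genes of cyclin destruction lower, against 21.9% of all genes.

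The members and gene lists were chosen with earlier results of these data known. Genes named were all members and CDK inhibitors, the 3 tested genes with the smallest p in each other list, Cd4 and Mki67, and the 2 genes with the nearest profile to each member. Cd3e and Gata3, also fixed as T cell checks, were at 476 to 874 TPM and 387 to 751 TPM. Genes overlapping a member, Ccnd1, Trac, Cd28 and Cd3d were named after their values were seen. Promoters were read from GRCm39 with GENCODE transcript starts. Protein sequences were not used here.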

Additional observations from a re-analysis of the deposited data

How the results depend on the processing

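The count of members called lower, 0, became 2 with the replicate block, 1 with median of ratios scaling and the block, 4 without replicate 3 of both conditions, 2 with median of ratios scaling without replicate 3, and 0 to 5 when 1 library was left out, 5 being the count without cold-acclimated replicate 3. Members called higher, 0, became 1 with median of ratios scaling and the block and 2 with median of ratios scaling without replicate 3. Regulators called lower, 18, became 7 with no filter, 10 with median of ratios scaling, 41 with the replicate block, 9 with voom, 0 to 63 when libraries or pairs were left out (1 and 0 without non-acclimated replicates 1 and 2, then 1, 2 and 62 without cold-acclimated replicates 1, 2 and 3, 0 without the pair numbered 1 or 2, where limma called none of all tested genes although 2410 and 2229 had an unadjusted p under 0.05, 63 without that numbered 3), and 51 with median of ratios scaling without replicate 3. Regulators called higher, 1, became 2 with a pseudocount of 0.1, 7 with median of ratios scaling, with that scaling and the block, and with voom, 0 to 3 when libraries or pairs were left out, and 8 with median of ratios scaling without replicate 3. The log2 difference of Ccnd2, 0.01, ranged from -0.42 to 0.64 when libraries or pairs were left out, being negative without any library of replicate 1 or 2, and was -0.085 with median of ratios scaling without replicate 2. That of Ccne1, -0.37, was 0.020 with median of ratios scaling with or without the block, 0.30 with that scaling without replicate 2 and 0.18 without replicate 3. With that scaling and without replicate 2, Ccnb1 was at 0.18, Cdk1 at 0.075 and Cdk2 at 0.032. Of 180 member differences recomputed, 149 kept direction and side of the threshold, 17 passed it and 14 reversed. The difference between the G1 and G2/M means stayed above 0 in each alternative, from 0.25 without replicate 2 to 1.79 without replicate 3. The causes of these differences were not tested. Ccne2, with as few as 121 reads, had the least depth. Fits without replicate pairs were added after seeing the data.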
